A study of Danio rerio with 23 samples.

Results

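The livers of obese HBx,src,p53 zebrafish were compared with the livers of wild-type (WT) zebrafish, both after 10 Gy of irradiation and without Oligo-Fucoidan. The arrays were chosen by their labels, as the 3 HBx,src,p53 arrays and the 2 WT arrays of the second batch that carried the mock treatment, and they are 5 of the 23 arrays of the series. The HBx,src,p53 fish carried the hepatitis B virus X gene (HBx) and src, each under the liver promoter of fabp10a, on a p53 mutant background that the labels write as p53- and the methods as p53-/+. They were females with diet-induced obesity (DIO), fed 83 mg of Artemia cysts per fish and day for a period that began at 3 months of age. The WT fish ate a normal diet of 6.9 mg per fish and day, and their sex is not given in the sources used here. All fish were 6 months old. Genotype, tumour transgenes and diet differ together between the groups and cannot be told apart, and fish without irradiation were not analysed here. Neither labels nor methods say whether each array is a separate fish, so the p-values measure the spread between arrays, which may be technical. For comparison, the same batch held 5 HBx,src,p53 DIO arrays and 2 WT arrays of fish given Oligo-Fucoidan (OF, a low molecular weight fucoidan, 300 mg/kg) before 10 Gy and again afterwards, and the first batch held 3 arrays of HBx,src DIO fish and 2 of WT fish with 40 Gy alone.

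As background, the liver makes cholesterol from acetyl-CoA through the mevalonate pathway, whose enzymes are switched on together by the transcription factor Srebp2 when sterols in the endoplasmic reticulum (ER) run low. Srebp1 does the same for fatty acid synthesis. Hepatocytes also secrete most plasma proteins through the ER, where chaperones fold them and misfolded chains are sent to the proteasome. In egg-laying females the liver answers to oestrogen by making vitellogenin, the yolk precursor, which the ovary takes up, and the ovary itself lies close to the liver in the body cavity.

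Each value is the log2 signal of a gene on 1 array as the authors deposited it, and each gene is represented by its brightest probe set. Groups were compared in limma, and a gene is called where its Benjamini-Hochberg adjusted p, taken across the 75212 probe sets of the array, was under 0.05. Adjusted p-values are from that fit, except those given for a gene without a named array, which are from the fit repeated without it. Errors given with ± are standard errors of the fit to all arrays. The array medians were 2.52 to 2.56 in both groups, and the brightest signals 14.03 to 14.14. Arrays of HBx,src,p53 DIO fish correlated at 0.952 to 0.954 with each other, the WT arrays at 0.955, and arrays of different groups at 0.893 to 0.912. Liver markers were bright in both groups. The plasma protein list averaged 10.32 to 10.42 on the HBx,src,p53 DIO arrays and 10.79 to 10.96 on the WT arrays, and fabp10a, the liver fatty acid binding protein, had 11.90, 12.86 and 12.47 on the HBx,src,p53 DIO arrays, against 12.84 and 12.38 on the WT arrays. Ovary genes were bright on the WT arrays as well. The mean of the ovary and oocyte list was 2.25 to 2.77 on the HBx,src,p53 DIO arrays, close to the array medians, and 6.05 to 6.25 on the WT arrays. On the WT OF + 10 Gy arrays it was 2.21 to 2.25. Those arrays, set in place of the WT arrays at several points in what follows, also differed from them in the oestrogen response. The list of oestrogen-responsive liver genes averaged 8.77 to 8.99 on the HBx,src,p53 DIO arrays and 8.51 to 8.90 on the WT arrays. On the WT OF + 10 Gy arrays it averaged 4.85 to 5.24. The exocrine pancreas list averaged 5.84 to 5.96 on the WT arrays and 4.18 to 4.89 on the WT OF + 10 Gy arrays. The change of WT arrays thus changes Oligo-Fucoidan, the ovary signal, vitellogenin and the pancreas signal together. The sex of the WT fish, which is not given, may differ between these arrays too, and none of these can be told apart. A bulk array cannot tell fewer cells of a type from less RNA per cell.

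HBx,src,p53 DIO livers had 1118 genes called higher than WT livers, 5.35% of the 20908 genes tested, and 1765 genes called lower, 8.44%. The median difference over all genes was 0.014 on the log2 scale. The called genes were far apart in size, with a median of 1.44 for the higher and 1.8 for the lower genes, and at least 2-fold in 925 of the higher and 1532 of the lower genes. All but 1 of the higher genes and all but 1 of the lower genes had no overlap between the arrays of the groups. With so few arrays the call itself nearly requires this, so it is no added evidence, here or for the called genes named below. Of all genes, called or not, 22% had every HBx,src,p53 DIO array above every WT array and 22.5% had every one below. With WT replicate 1 left out the counts were 548 higher and 1304 lower. With the WT OF + 10 Gy arrays in place of the WT arrays they were 923 higher and 949 lower, again of 20908 genes. List counts against the WT OF + 10 Gy arrays, given below, are to be read beside these numbers and not beside 5.35% and 8.44%.

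**Figure D1:**
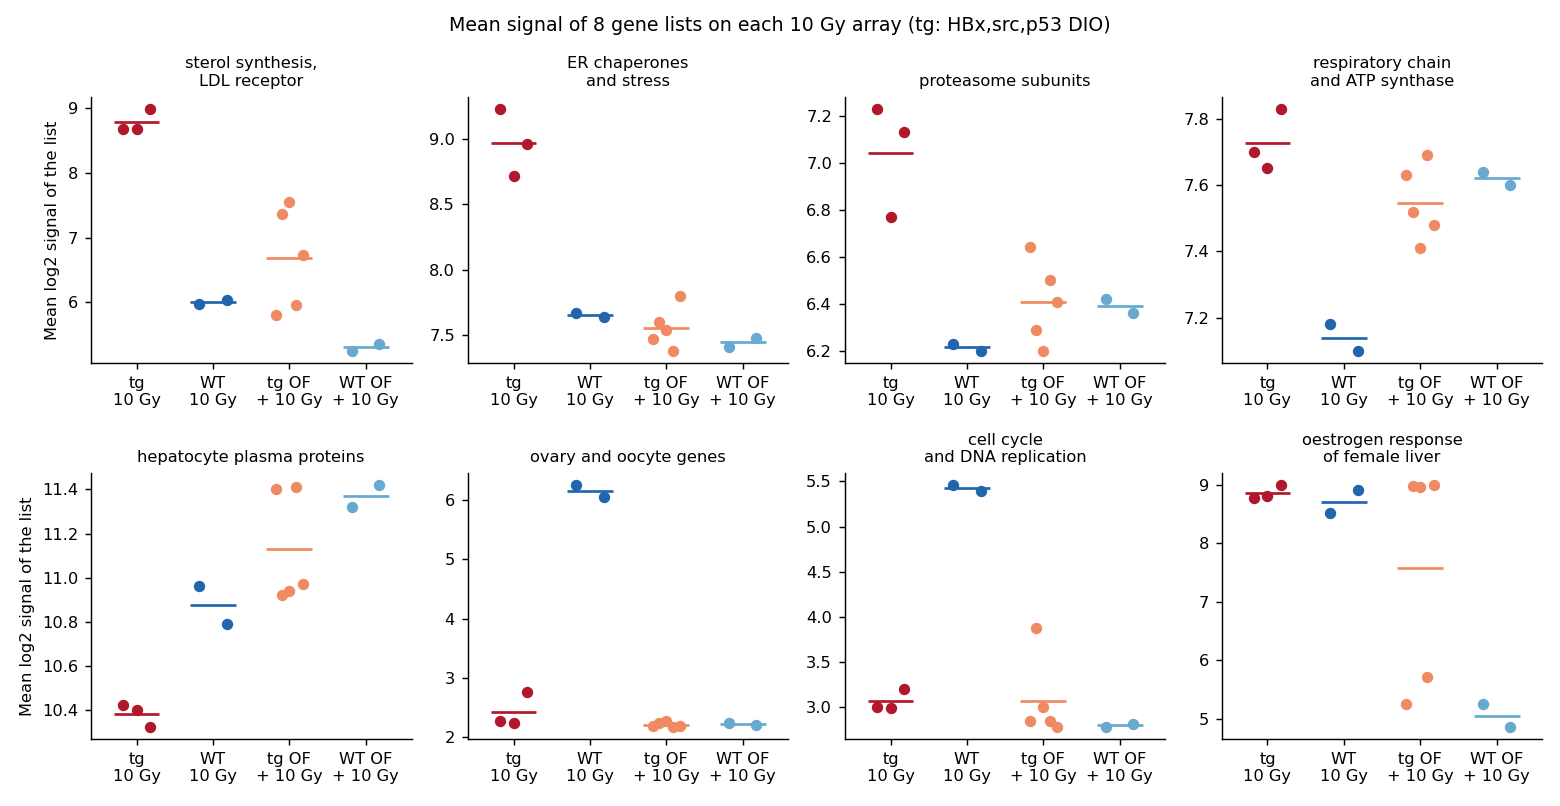
Mean log2 signal of 8 gene lists on each of the 12 arrays with 10 Gy, with 1 point per array and a line at the group mean; tg stands for HBx,src,p53 DIO. Without Oligo-Fucoidan the sterol list averaged 8.67 to 8.99 on the HBx,src,p53 DIO arrays and 5.97 to 6.03 on the WT arrays, while the ovary list stood out on the WT arrays alone, at 6.05 to 6.25.

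Sterol synthesis had the highest median difference of the 41 lists examined. Of the 29 genes of the sterol synthesis and LDL receptor list, 14 were called higher and 0 lower, with a median difference of 2.85. Every HBx,src,p53 DIO array was above every WT array in 26 of them. Of all genes 5.35% were called higher and 22% had no overlap in that direction. The mevalonate kinase mvk had 6.25, 6.52 and 7.08 on the HBx,src,p53 DIO arrays, against 2.70 and 3.44 on the WT arrays. Its difference was 3.54 ± 0.33 (SE), 11.7-fold, with an adjusted p of 6e-07. The isomerase idi1, which makes the allylic building block of the pathway, had 10.58, 11.02 and 11.13 on the HBx,src,p53 DIO arrays, against 5.82 and 6.68 on the WT arrays. In both genes the lowest HBx,src,p53 DIO array was far above the highest WT array. The largest steps were seen around squalene. Squalene epoxidase, sqlea, had 10.33, 9.81 and 11.07 on the HBx,src,p53 DIO arrays, against 4.45 and 3.46 on the WT arrays, a difference of 6.45 ± 1.72 with an adjusted p of 0.026. Lanosterol synthase, lss, which closes the ring system, had 8.88, 9.08 and 9.54 on the HBx,src,p53 DIO arrays, against 2.66 and 2.97 on the WT arrays, 81.6-fold with an adjusted p of 0.00072. The WT signals of lss, and that of mvk at 2.70, were close to the WT array medians of 2.52 and 2.56. The fold differences of lss and mvk are therefore uncertain in size. In each of these 4 genes HBx,src,p53 DIO replicate 3 was the highest array.

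Both ends of the pathway were called. The acetoacetyl-CoA thiolase acat2 was higher by 4.96 (adjusted p = 0.0025) and aacs, which turns acetoacetate into acetoacetyl-CoA and is no member of the list, by 6.08 (adjusted p = 0.0018). Squalene synthase, fdft1, was higher by 4.15, and among the late enzymes hsd17b7 was higher by 5.00, dhcr7 by 4.08, ebp by 3.55, sc5d by 3.26 and nsdhl by 2.06. The phosphomevalonate kinase pmvk was higher by 2.64. Of the regulators, scap, the escort of the Srebp proteins, was higher by 1.34 (adjusted p = 0.0061), and so was soat1, which esterifies cholesterol for storage, by 1.88. The rate-limiting reductase hmgcra was not called. It had 11.67, 11.81 and 11.86 on the HBx,src,p53 DIO arrays, against 9.30 and 8.55 on the WT arrays, and its spread over the series gave a standard error of 1.85 and an adjusted p of 0.50. The synthase hmgcs1 differed by 5.11 with an adjusted p of 0.057, srebf2 itself by 1.66 with 0.12, and the receptor gene ldlrb by 0.02 with 0.99.

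**Figure D2:**
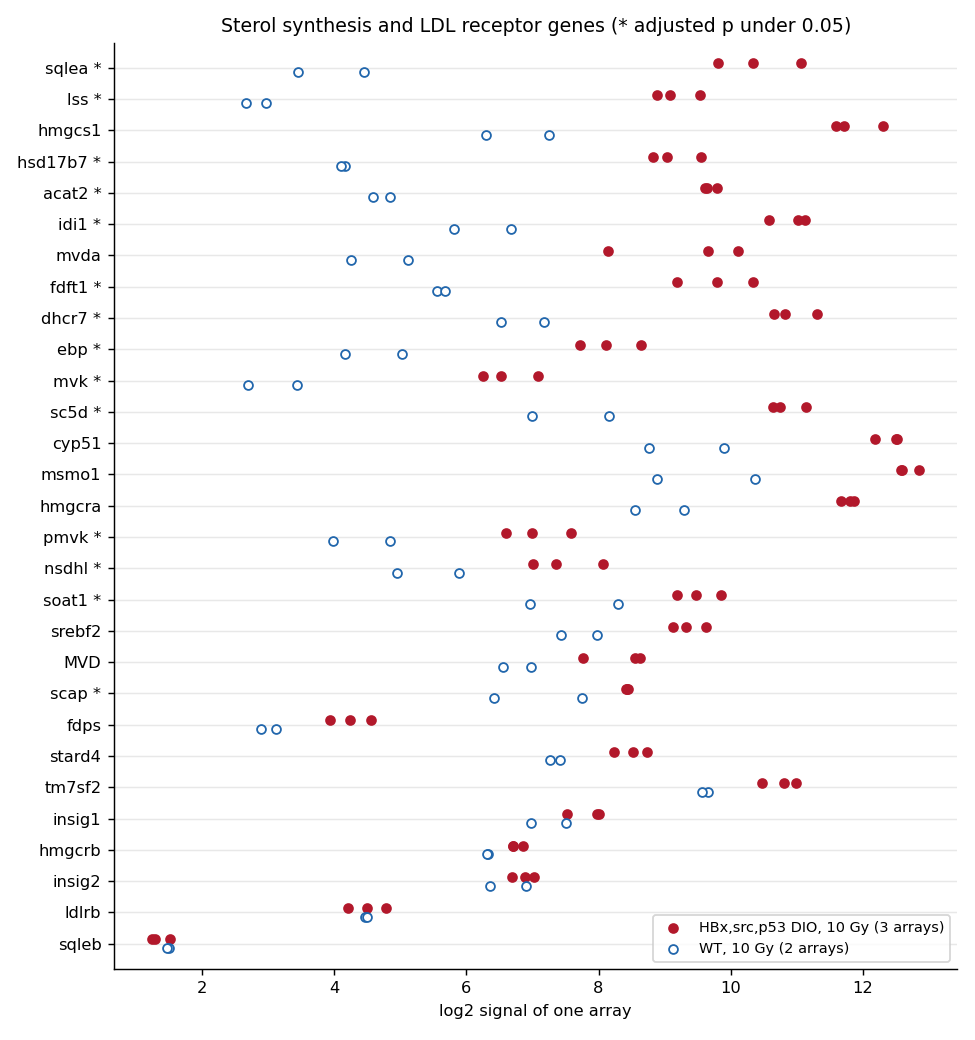
Log2 signal of the 29 genes of the sterol synthesis and LDL receptor list, with 1 point per array, filled for HBx,src,p53 DIO (3 arrays) and open for WT (2 arrays), all with 10 Gy alone; an asterisk marks an adjusted p under 0.05. In 26 of the 29 genes all filled points lie right of all open points, and ldlrb is among those that overlap.

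The count of sterol genes depended on single arrays, being 9 without WT replicate 1, 8 without WT replicate 2 and 9 without HBx,src,p53 DIO replicate 3. With the 5 arrays fitted alone it was 17. The calls of sqlea, fdft1 and nsdhl were lost without either WT array (adjusted p = 0.053 to 0.34), ebp (0.095), sc5d (0.18) and pmvk (0.16) without WT replicate 2, and scap (0.23, at a difference of 0.68) and soat1 (0.30, at 1.22) without WT replicate 1. Without HBx,src,p53 DIO replicate 3, sqlea (0.078), fdft1 (0.061), nsdhl (0.13), pmvk (0.054) and soat1 (0.057) were not called, nor was sqlea without replicate 1 (0.062) or nsdhl without replicate 2 (0.064). The ovary list differed between the same arrays. Against the WT OF + 10 Gy arrays, where the ovary list was near the array medians but vitellogenin was low as well (vtg2 at 3.96 and 3.18), 19 of the 29 genes were called higher, with a median of 3.77.

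Genes of fatty acid synthesis were higher in part. The median of the 47 genes of the lipogenesis list was 0.18. Beside a share of 5.35% of all genes called higher, 6 of the 47 were called higher and 0 lower. They were acaca and fasn, the enzymes that commit acetyl-CoA to fatty acids and build the chain, elovl5, which lengthens polyunsaturated chains, gpam, the first enzyme of triglyceride assembly, pgd, an NADPH source, and the regulator srebf1. The carboxylase acaca had 9.83, 10.06 and 10.03 on the HBx,src,p53 DIO arrays, against 5.40 and 6.47 on the WT arrays, a difference of 4.04 ± 0.79 (adjusted p = 0.0025). The pgd gene had 8.71, 8.10 and 8.84 on the HBx,src,p53 DIO arrays, against 5.77 and 5.39 on the WT arrays, with an adjusted p of 0.0016. Neither gene overlapped. For srebf1 the difference was 1.59, with 10.09, 10.09 and 10.11 on the HBx,src,p53 DIO arrays, against 8.35 and 8.67 on the WT arrays. The desaturase scd differed by 2.75 with an adjusted p of 0.12. Of the 6, 2 stayed called without WT replicate 1 and 3 without WT replicate 2. With the 5 arrays fitted alone 9 genes of the list were called higher and 1 lower. The call of fasn (3.89, adjusted p = 0.035) was lost whichever of the 5 arrays was left out (0.068 to 0.19), that of srebf1 without either WT array (0.15 and 0.053), those of acaca (0.059) and gpam (0.14, at a difference of 2.00) without WT replicate 1, and that of elovl5 (0.053) without WT replicate 2. The median of the list was -0.01 against the WT OF + 10 Gy arrays, where 11 genes were called higher and 5 lower. In all, 4 genes of the list were called higher against both sets of WT arrays.

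Called genes of lipid carriers went both ways. Of the 26 genes of the apolipoprotein and lipoprotein assembly list 3 were called higher and 2 lower, with a median of -0.1. Among all genes 5.35% were called higher and 8.44% lower. The transfer protein mttp, which loads triglyceride onto apolipoprotein B, had 10.40, 9.96 and 10.49 on the HBx,src,p53 DIO arrays, against 8.67 and 8.41 on the WT arrays, a difference of 1.75 ± 0.19 (adjusted p = 4.4e-06). The HDL protein gene apoa1a had 10.67, 11.25 and 11.78 on the HBx,src,p53 DIO arrays, against 8.63 and 7.08 on the WT arrays, a difference of 3.38 ± 0.47 (adjusted p = 9.3e-05). The HDL receptor gene scarb1 had 5.33, 5.03 and 4.60 on the HBx,src,p53 DIO arrays, against 8.61 and 7.69 on the WT arrays, 8.98-fold lower (adjusted p = 1.6e-06). The WT OF + 10 Gy signals, however, were 12.06 and 11.27 for apoa1a and 4.90 and 4.86 for scarb1, near those of the HBx,src,p53 DIO arrays. The apolipoprotein E gene apoea, called at 3.80, had 4.38, 7.10 and 10.03 on the HBx,src,p53 DIO arrays, against 3.70 and 3.05 on the WT arrays. Its call was lost without WT replicate 1 (adjusted p = 0.08) or WT replicate 2 (0.16), and without HBx,src,p53 DIO replicate 3 the difference was 2.36. The apof gene (-3.76) was called at an adjusted p of 0.047 and lost its call without either WT array or without HBx,src,p53 DIO replicate 1 or 3 (0.13 to 0.25).

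Chaperones and degradation factors of the ER came next by median difference. Of 78 genes 27 were called higher and 1 lower, and the median was 1.3. Of all genes 5.35% were called higher. No overlap in the higher direction was seen for 64 of the 78 genes and for 22% of all genes. The list mean was 8.72 to 9.23 on the HBx,src,p53 DIO arrays and 7.64 to 7.67 on the WT arrays. Asparagine synthetase, asns, a target of the amino acid and ER stress factor Atf4, had 8.97, 8.99 and 8.93 on the HBx,src,p53 DIO arrays, against 6.17 and 6.1 on the WT arrays. Its difference was 2.82 ± 0.30 (adjusted p = 4e-06). The mannosidase-like genes edem3 and edem2, which mark misfolded glycoproteins for disposal, were higher by 2.36 and 2.08 (adjusted p = 4.1e-05 and 5.3e-05). For edem3 the signals were 8.12, 7.71 and 7.51 on the HBx,src,p53 DIO arrays, against 5.41 and 5.43 on the WT arrays, with no overlap. The translocon component sec63 was higher by 2.19, sdf2 by 1.86, the stress sensor atf6 by 2.18 and the lectin chaperone canx by 1.73.

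The best known ER stress genes were not called. The chaperone hspa5 (BiP) had 11.95, 10.43 and 11.24 on the HBx,src,p53 DIO arrays, against 9.93 and 9.78 on the WT arrays, with an adjusted p of 0.61. The hsp90b1 gene differed by 1.24 (adjusted p = 0.57) and the transcription factor xbp1 by 1.28 (0.24). All of these lay higher on every HBx,src,p53 DIO array. The single lower gene, the ER prolyl isomerase fkbp14 (-1.07), lost its call without any single array other than HBx,src,p53 DIO replicate 3 (0.061 to 0.39), and canx lost it without WT replicate 2 (0.26) and without HBx,src,p53 DIO replicate 1 (0.056). The number called higher was 15 without WT replicate 1, 10 without WT replicate 2 and 17 without HBx,src,p53 DIO replicate 1. It was 40 where only the 12 arrays of the second batch were fitted and 33 where the 5 arrays were fitted alone. Against the WT OF + 10 Gy arrays, with their low oestrogen response and lower pancreas signal, 36 ER genes were higher and 0 lower, with a median of 1.41.

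Proteasome and mitochondrial genes were higher by smaller steps. Of 50 proteasome genes 18 were called higher and 0 lower, with a median of 1.00. The lid subunit psmd3 had 8.61, 8.45 and 8.40 on the HBx,src,p53 DIO arrays, against 6.66 and 6.97 on the WT arrays, a difference of 1.67 ± 0.26 (adjusted p = 0.00024). The base subunit psmd2 was higher by 1.48, the core subunit psma8 by 1.26 and the activator psme4b by 1.36, the last losing its call without WT replicate 1 (0.051) or WT replicate 2 (0.065). The proteasome count was 6 without WT replicate 1, 5 without WT replicate 2, 7 and 9 without HBx,src,p53 DIO replicates 1 and 3, and 5 where the 5 arrays were fitted alone. Against the WT OF + 10 Gy arrays 7 proteasome genes were higher and 0 lower, with a median of 0.69. The heat shock list held 5 higher genes of 47, hspa14, hspe1, hspa13, hspa9 and hspd1, by 1.54 to 2.42, where 5.35% of all genes were called higher. The mitochondrial co-chaperonin hspe1 had 9.91, 9.27 and 9.61 on the HBx,src,p53 DIO arrays, against 7.85 and 7.58 on the WT arrays (adjusted p = 9.6e-05). Its partner hspd1 was not called without WT replicate 1 (0.054) or WT replicate 2 (0.12). The cytosolic co-chaperone dnajb1b was the 1 lower gene of that list, at -3.12.

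Respiratory chain and ATP synthase genes were called higher in 26 of 89 cases and lower in 0, with a median of 0.59. Of all genes 5.35% were called higher. The complex I subunit ndufs1 had 8.68, 8.72 and 8.77 on the HBx,src,p53 DIO arrays, against 7.21 and 7.30 on the WT arrays, 2.77-fold (adjusted p = 0.00016). The succinate dehydrogenase subunit sdha was higher by 0.99, ndufa6 by 1.23 and the cytochrome oxidase subunit cox6b1 by 1.67, or 1.1 without WT replicate 2. Without WT replicate 2 the count was 12, and with the 5 arrays fitted alone 8. The low values were on the WT arrays in particular. Their list mean was 7.10 to 7.18, while it was 7.65 to 7.83 on the HBx,src,p53 DIO arrays and 7.60 to 7.64 on the WT OF + 10 Gy arrays, and 2 genes were called higher against the WT OF + 10 Gy arrays. The ovary list was high on those same WT arrays, and its part in the result was not tested.

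Amino acid metabolism held 10 higher genes and 1 lower of 90, with a median of 0.45. Ribosome biogenesis held 10 higher and 1 lower of 75, with a median of 0.45. The shares of all genes were 5.35% higher and 8.44% lower. The serine synthesis enzyme psat1 had 7.68, 8.53 and 7.41 on the HBx,src,p53 DIO arrays, against 4.65 and 4.93 on the WT arrays, a difference of 3.08 ± 0.30 (adjusted p = 1.1e-06). The preceding enzyme of the same pathway, phgdh, was the lower gene, at 2.42, 4.14 and 3.73 on the HBx,src,p53 DIO arrays, against 4.56 and 5.34 on the WT arrays. The methionine adenosyltransferase subunit gene mat2ab was higher by 4.55 (adjusted p = 0.00051), gcdha of lysine breakdown by 1.99 and the ornithine aminotransferase oat by 3.24. Here the groups split without overlap, but gcdha and oat on the WT OF + 10 Gy arrays, at 9.36 and 9.31 and at 9.16 and 9.46, were near those of the HBx,src,p53 DIO arrays. The nucleolar protein npm1a averaged 9.98 on the HBx,src,p53 DIO arrays, the lowest of which was at 9.78, and 7.58 on the WT arrays, at 7.26 and 7.91 (adjusted p = 0.0019). The nucleolar GTPase gnl3 was higher by 2.6 and the pre-ribosome factor tsr1 by 2.13, and utp11 was 4.83-fold lower. Without WT replicate 1 only 6 amino acid genes and 1 ribosome biogenesis gene were called higher, and gnl3 (0.11), tsr1 (0.09) and utp11 (0.082) lost their calls, as phgdh did without WT replicate 2 (0.18). Against the WT OF + 10 Gy arrays the amino acid list turned, with 10 genes higher, 13 lower and a median of -0.26, while ribosome biogenesis had 23 higher and 0 lower genes and a median of 0.99. The 71 cytosolic ribosomal proteins had 0 called genes and a median of 0.05.

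**Figure D3:**
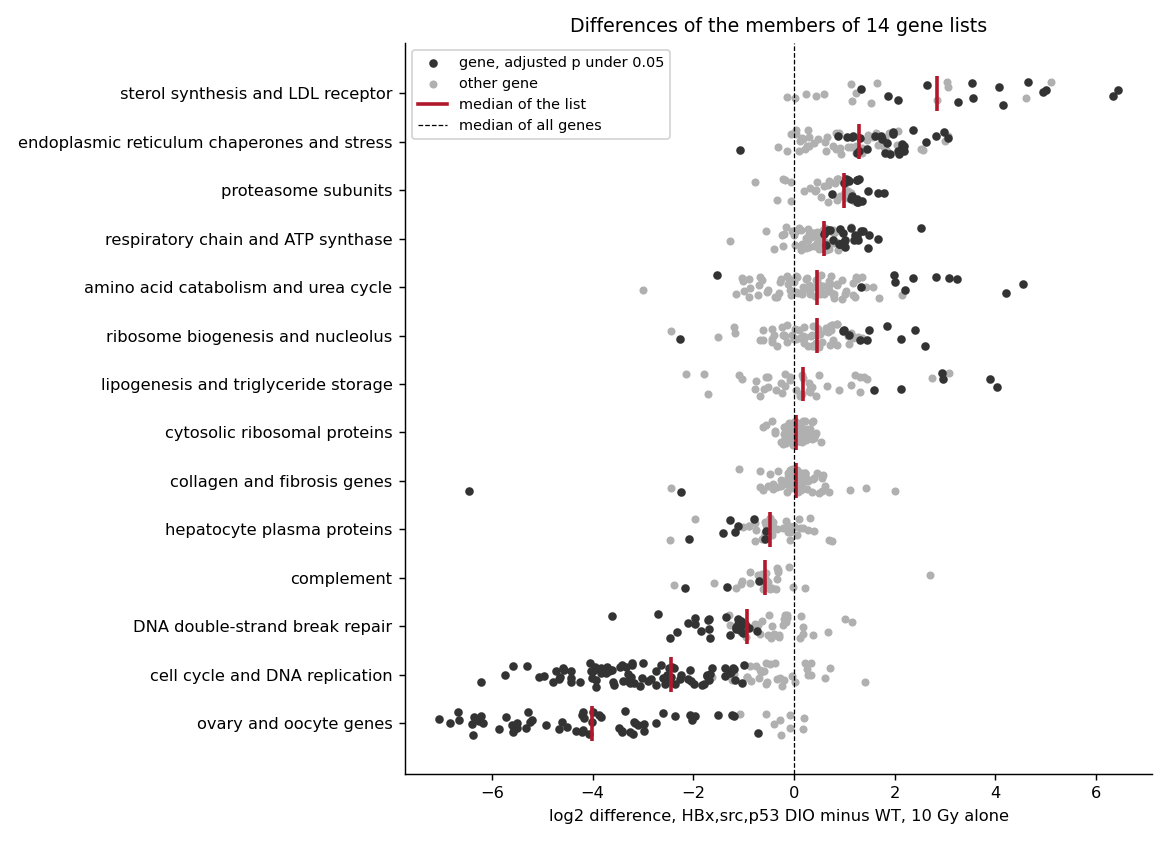
Log2 differences between HBx,src,p53 DIO and WT arrays with 10 Gy alone for the members of 14 gene lists, with 1 point per gene, black where the adjusted p was under 0.05, a red line at the median of the list and a dashed line at the median of all genes. The medians run between 2.85 for the sterol list and -4.01 for the ovary and oocyte list.

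Several of the largest increases belonged to none of these lists. The secreted C1q family gene c1ql4l had 8.74, 9.59 and 9.47 on the HBx,src,p53 DIO arrays, against 2.17 and 1.58 on the WT arrays, a difference of 7.39 ± 1.01 (adjusted p = 6.8e-05). Since the WT signals were below the array medians, the size is uncertain, and against those medians it was at least 6.73. The ependymin-like gene epdl2 was higher by 6.64, at least 6.41 against the medians, with 8.77, 9 and 9.05 on the HBx,src,p53 DIO arrays, against 2.23 and 2.38 on the WT arrays. In both genes all HBx,src,p53 DIO arrays were bright and all WT arrays at the dim end. The fatty acid binding protein fabp7a, known from the brain, was higher by 43.4-fold and the cytochrome b5 gene cyb5b by 29.4-fold. For fabp7a the signals were 10.25, 10.48 and 11.33 on the HBx,src,p53 DIO arrays, against 5.23 and 5.26 on the WT arrays. The gene si:ch1073-13h15.3, with no annotated role here, was higher by 5.45, and the haem synthesis enzyme urod by 2.27 (adjusted p = 1e-04). The call of epdl2 was lost without WT replicate 1 (0.092) or WT replicate 2 (0.077).

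Among the lower genes the ovary list came first. Of its 66 genes 57 were called lower and 0 higher, and the median was -4.01, or -3.34 with each array's median as a floor. Leaving out any array gave 53 to 58. The oocyte kinase wee2 had 1.78, 1.93 and 1.99 on the HBx,src,p53 DIO arrays, against 5.08 and 5.03 on the WT arrays, a difference of -3.16 ± 0.12 (adjusted p = 1.4e-11). The egg coat gene zpd had 2.11, 1.89 and 2.37 on the HBx,src,p53 DIO arrays, against 6.19 and 6.47 on the WT arrays. Both were at or below the array medians in HBx,src,p53 DIO livers, where their size is a lower bound, -2.51 for wee2 and -3.79 for zpd. The cyclosome inhibitor fbxo5 differed by -5.28 (-4.71 with the floor) and the oocyte poly(A)-binding protein pabpc1l by -4 (-3.97 with the floor). The germ cell genes dazl (-5.6), ddx4 (-3.09) and bmp15 (-4.02), chosen after their values were seen, were lower too. The steroid enzymes cyp11a1.1, cyp17a1 and hsd3b2, which the ovary uses, differed by -4.53, -2.86 and -2.98, the first pair being dim in HBx,src,p53 DIO livers (-3.64 and -2.24 with the floor). With foxl2l (-0.71, lost without WT replicate 1 at 0.29 and without HBx,src,p53 DIO replicates 1 and 3 at 0.096 and 0.064) they were the 4 called genes of the 36 of the ovarian somatic cell list, a share near the 8.44% of all genes. The median of that list was -0.05, and 17 of the 36 had a positive difference.

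The 12 lower genes with the largest differences had signals of 9.51 to 11.21 on the WT arrays and 1.11 to 2.65 on HBx,src,p53 DIO replicates 1 and 2. On replicate 3 they had 3.09 to 5.67. Their mean signals on the WT OF + 10 Gy arrays were 1.18 to 2.48. Among them zpax1, an egg envelope gene, had 1.86, 2.49 and 4.20 on the HBx,src,p53 DIO arrays, against 10.27 and 9.97 on the WT arrays, and gtf3ab, the factor that binds the oocyte 5S RNA genes, had 2.18, 2.03 and 4.1 on the HBx,src,p53 DIO arrays, against 10.58 and 10.10 on the WT arrays. The dop1b gene had 1.59, 1.63 and 5.67 on the HBx,src,p53 DIO arrays, against 10.88 and 10.38 on the WT arrays. In these genes the WT arrays were uniformly high and HBx,src,p53 DIO replicate 3 stood between the groups. The unnamed transcript wu:fi09b08 had the largest difference of the 12, -8.05 ± 1.12. On HBx,src,p53 DIO replicates 1 and 2 the 12 genes were near or below the array medians of 2.56 and 2.54. The sizes and the order of these differences are therefore uncertain. Of the 57 ovary genes called lower, 41 had their highest HBx,src,p53 DIO value on replicate 3.

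Cell cycle and DNA repair genes were low in the same comparison. Of 117 cell cycle and replication genes 84 were called lower and 0 higher, with a median of -2.45. Of 57 genes of DNA double-strand break repair 25 were lower and 0 higher, with a median of -0.93. Of all genes 8.44% were called lower. Cyclin B2, ccnb2, had 3.05, 3.01 and 3.53 on the HBx,src,p53 DIO arrays, against 7.38 and 7.49 on the WT arrays, a difference of -4.24 ± 0.17 (adjusted p = 2.3e-11). The spindle genes nusap1 and prc1a differed by -4.43 and -3.95 and the mitotic kinase gene aurkb by -4.06. The study's own proliferation markers cdk1, cdk2 and ccne1 differed by -4.43, -2.37 and -4.66. For cdk1 the signals were 2.26, 1.78 and 2.00 on the HBx,src,p53 DIO arrays, against 6.78 and 6.11 on the WT arrays, so that the HBx,src,p53 DIO arrays were below their medians and the difference with the floor was -3.91. The floor values of nusap1 and aurkb were -3.72 and -3.85.

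In DNA repair, the helicase blm had 2.41, 2.07 and 2.31 on the HBx,src,p53 DIO arrays, against 5.97 and 5.77 on the WT arrays, a difference of -3.61 ± 0.24 (-3.33 with the floor). The nuclease partner eme1 differed by -2.46, the recombination helicase rad54b by -1.84, the end-resection genes dna2 and rbbp8 by -2.7 and -2.33 and the checkpoint kinase chek1 by -2.11, with floor values of -1.51 for eme1, -1.31 for rad54b and -1.38 for chek1. Counts without single arrays were 72 to 83 for the cell cycle and 18 to 24 for repair, and cdk2 lost its call without WT replicate 1 (0.15), WT replicate 2 (0.058) or HBx,src,p53 DIO replicates 1 and 2 (0.05 and 0.06). The ovary genes differed between the same arrays. The cell cycle list averaged 2.98 to 3.2 on the HBx,src,p53 DIO arrays, 5.39 to 5.46 on the WT arrays and 2.77 to 2.81 on the WT OF + 10 Gy arrays, and the repair list 3.71 to 3.75 on the HBx,src,p53 DIO arrays, 4.58 to 4.63 on the WT arrays and 3.73 to 3.75 on the WT OF + 10 Gy arrays. Against the WT OF + 10 Gy arrays 4 cell cycle genes were higher and 1 lower, and 1 repair gene was higher and 1 lower. Their part in the result was not tested.

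Other strongly lower genes had the same pattern over the arrays. The surface protein thy1, filed here with the fibrosis genes, had 3.28, 3.17 and 3.15 on the HBx,src,p53 DIO arrays, against 9.91 and 9.39 on the WT arrays, while the WT OF + 10 Gy arrays had 3.05 and 3.07. The glycolytic enzyme tpi1a had 3.16, 3.34 and 3.42 on the HBx,src,p53 DIO arrays, against 6.55 and 6.78 on the WT arrays, and 3.01 and 2.91 on the WT OF + 10 Gy arrays. For epcam, an adhesion protein of epithelia, the values were 6.03, 6.04 and 6.77 on the HBx,src,p53 DIO arrays, against 10.57 and 10.39 on the WT arrays, and 6.48 and 6.88 on the WT OF + 10 Gy arrays. In each of the 3 genes, whose differences were -6.45, -3.35 and -4.2, the WT arrays with 10 Gy alone stood above the other arrays. The tight junction gene cldn7b (-4.1) and the cathepsin gene ctss2.1 (-4.24) were lower as well. So were, from the liver cancer and growth list, the RNA-binding protein igf2bp3 (-4.21) and the Src family kinase fyna (-1.80, or -0.49 with the floor). That list held 13 lower and 0 higher genes of 66, with a median of -0.17, where 8.44% of all genes were called lower. Without WT replicate 2 or HBx,src,p53 DIO replicate 3 it held 8 lower genes.

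Some secreted liver proteins were lower as well. Of 47 plasma protein genes 8 were called lower and 0 higher, with a median of -0.48, where 8.44% of all genes were called lower. The inter-alpha-trypsin inhibitor chain itih3a.1 had 10.51, 10.36 and 10.06 on the HBx,src,p53 DIO arrays, against 11.59 and 11.36 on the WT arrays, a difference of -1.17 ± 0.22 (adjusted p = 0.002). Coagulation factor VII, f7, was 2.65-fold lower, and the antitrypsin genes serpina1 and serpina1l were 2.39-fold and 1.47-fold lower. The groups did not overlap, but 1 gene of the list was called without WT replicate 1, where f7 (0.09), serpina1 (0.11) and serpina1l (0.13) lost their calls. Complement genes were lower in 3 of 31 cases, CFI (-1.32), c3b.2 (-0.69) and c4 (-2.17), with a median of -0.57, a share near the 8.44% of all genes. With the replicate number as a block 0 complement genes and 3 plasma protein genes were called. All 3 complement genes lost their calls without either WT array (0.051 to 0.18), and c4 also without HBx,src,p53 DIO replicate 2 (0.11), while 9 were called without HBx,src,p53 DIO replicate 1. Against the WT OF + 10 Gy arrays, 27 plasma protein genes were lower and 1 higher, and 14 complement genes were lower and 0 higher. Among all 20908 genes, 949 were called lower and 923 higher against the WT OF + 10 Gy arrays.

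Some single liver genes stood far apart. The acute phase gene crp2, a C-reactive protein, had 3.55, 5.18 and 6.63 on the HBx,src,p53 DIO arrays, against 11.09 and 10.98 on the WT arrays, a difference of -5.92 ± 1.32 (adjusted p = 0.0073). The monooxygenase cyp1d1 had 3.98, 3.81 and 3.25 on the HBx,src,p53 DIO arrays, against 8.81 and 8.71 on the WT arrays, 33.8-fold lower (adjusted p = 0.00033). The transporter abcg2a had 7.84, 8.23 and 8.30 on the HBx,src,p53 DIO arrays, against 10.69 and 10.36 on the WT arrays. These genes were low on every HBx,src,p53 DIO array, and cyp1d1 at 9.35 and 10.29 and abcg2a at 10.68 and 10.09 were also high on the WT OF + 10 Gy arrays. The P450 gene cyp2k16 differed by -3.87, with WT arrays at 5.45 and 7.65. Its call was lost without WT replicate 2 (0.30) or HBx,src,p53 DIO replicates 1 and 2 (0.061 and 0.065), and that of crp2 without WT replicate 1 (0.065) or WT replicate 2 (0.055).

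Genes that define the model and targets of p53 were examined next. The src gene had 6.19, 5.17 and 6.43 on the HBx,src,p53 DIO arrays, against 5.62 and 5.94 on the WT arrays, and was not called (adjusted p = 0.94). Whether the src probe set also reads the transcript of the src transgene was not examined, so these values do not show its expression. HBx and the p53 gene itself were not analysed here. Of 32 damage response targets of p53, 4 were lower and 2 higher, shares near the 8.44% and 5.35% of all genes. The kinase plk3 had 3.33, 4.36 and 5.50 on the HBx,src,p53 DIO arrays, against 9.08 and 9.22 on the WT arrays (-4.75 ± 0.54). The death gene pmaip1 (Noxa) differed by -4.3, gtse1 by -2.69 and tigarb by -0.99, and mdm4 and rps27l were higher by 1.25 and 0.98. The cell cycle inhibitor cdkn1a had 3.52, 2.77 and 4.3 on the HBx,src,p53 DIO arrays, against 4.44 and 3.99 on the WT arrays, and was not called (adjusted p = 0.71). The p53 antagonist mdm2 had 5.76, 5.94 and 6.02 on the HBx,src,p53 DIO arrays, against 6.93 and 6.51 on the WT arrays (adjusted p = 0.61). WT OF + 10 Gy arrays had 5.31 and 5.71 for plk3 and 2.72 and 3.55 for pmaip1, below the WT arrays with 10 Gy alone. The calls of mdm4 (0.32 without WT replicate 1 and 0.076 without HBx,src,p53 DIO replicate 3), tigarb (0.052 to 0.16, without any array but HBx,src,p53 DIO replicate 3) and rps27l (0.05 to 0.31, without any array but HBx,src,p53 DIO replicate 1) were lost.

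The study also followed fibrosis and cell death genes, and the 6 of them given here were not called. The collagen gene col1a1a had 4.73, 4.66 and 5.17 on the HBx,src,p53 DIO arrays, against 4.80 and 4.89 on the WT arrays, with an adjusted p of 1. For ccn2a, the connective tissue growth factor gene, the difference was -0.41 (0.79), and for the heparanase hpse -0.08 (0.95). Of 71 collagen and fibrosis genes thy1 and the fibronectin gene fn1a (-2.24, or -1.78 with the floor) were the 2 called, fn1a not without WT replicate 2 (0.053). Both thy1 and fn1a were lower, where 8.44% of all genes were called lower. The death receptor fas differed by 1.23 (0.42), casp8 by -0.74 (0.33) and baxa by -0.24 (0.90).

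Vitellogenin genes were bright in both groups, and 0 of the 7 were called. The vtg2 gene had 13.90, 13.91 and 13.93 on the HBx,src,p53 DIO arrays, against 13.71 and 13.89 on the WT arrays. These signals lie close to the brightest of each array (14.03 to 14.14), so the size of a difference cannot be read from them. On the WT OF + 10 Gy arrays vtg2 had 3.96 and 3.18. The vtg8 gene, farther from that limit, had 10.14, 10.05 and 10.01 on the HBx,src,p53 DIO arrays, against 7.16 and 9.34 on the WT arrays (adjusted p = 0.76), and was lower on WT replicate 1 than on replicate 2. For vtg4 the adjusted p was 0.96. Of 21 genes of the oestrogen response, c3b.2 was the 1 called, and it was lower, where 8.44% of all genes were called lower.

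Markers of other neighbours and blood cells were checked in the same way. The exocrine pancreas, whose tissue is scattered through the zebrafish abdomen, had 0 of 34 enzymes called, a median of 0.87, and list means of 6.04 to 7.76 on the HBx,src,p53 DIO arrays, against 5.84 to 5.96 on the WT arrays. The highest was HBx,src,p53 DIO replicate 3, and without it the median was 0.18. Neutrophil and macrophage markers averaged 3.80 to 4.28 on the HBx,src,p53 DIO arrays and 3.66 to 3.91 on the WT arrays, and lymphocyte markers 2.13 to 2.16 on the HBx,src,p53 DIO arrays and 2.22 to 2.39 on the WT arrays. Erythrocyte genes averaged 4.12 to 4.28 on the HBx,src,p53 DIO arrays and 3.73 to 3.87 on the WT arrays. Biliary genes averaged 5.13 to 5.43 on the HBx,src,p53 DIO arrays and 5.28 to 5.54 on the WT arrays. Of 45 neutrophil and macrophage markers 3 were called higher and 2 lower, and of 24 lymphocyte markers 0 and 1. Of 37 erythrocyte genes 2 were called higher and 0 lower, and of 37 biliary genes 0 and 3. Among all genes the shares were 5.35% higher and 8.44% lower. No overlap in the higher direction was seen for 19 of the erythrocyte genes and for 22% of all genes.

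The contrast of HBx,src,p53 DIO with WT livers after Oligo-Fucoidan and 10 Gy shares no array with this one and gave fewer calls. Its groups also differed in the oestrogen response, which averaged 5.25 to 8.99 on the HBx,src,p53 DIO OF + 10 Gy arrays and 4.85 to 5.24 on the WT OF + 10 Gy arrays, whereas both groups with 10 Gy alone were at 8.51 to 8.99. The part of this in the counts was not tested, and the sex of the WT fish is not given. With Oligo-Fucoidan, 80 genes were called higher (0.383% of the genes tested) and 141 lower (0.674%). Of the 1118 higher genes 30 were also called higher with Oligo-Fucoidan, 2.68% of them and 37.5% of the 80, and of the 1765 lower genes 23 were also lower, 1.3% of them and 16.3% of the 141. A positive difference was seen with Oligo-Fucoidan for 69.6% of the higher genes and 49.5% of all genes. For the lower genes, 53.9% had a negative difference, against 50.5% of all genes. The test of the difference between both contrasts called 366 genes (1.75%) as larger and 1055 (5.05%) as smaller with 10 Gy alone, and these held 307 of the 1118 higher and 1027 of the 1765 lower genes. The smaller ones held 54 ovary genes and 80 cell cycle genes. The contrast that called the 1118 and 1765 genes is part of the difference tested, so such an overlap is favoured in advance and is no added evidence. With Oligo-Fucoidan the medians were 1.02 for the sterol list, 0.07 for the ER, -0.01 for the proteasome and 0.00 for the ovary list. The sterol list differed by this test for 2 genes, mvk and idi1, and 1 sterol gene, hmgcra, was called with Oligo-Fucoidan (8.06, adjusted p = 0.031), where the WT OF + 10 Gy arrays had 1.36 and 1.6.

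Some genes were called in both contrasts. The largest was c1ql4l, at 7.39 without and 8.37 with Oligo-Fucoidan. The glutamate decarboxylase gene gad1a had 7.38, 7.08 and 5.99 on the HBx,src,p53 DIO arrays, against 2.82 and 2.06 on the WT arrays, and was higher by 4.37 without and 2.16 with Oligo-Fucoidan. The RNA-binding protein raly was higher by 2.97 and 2.85, the acyl-CoA dehydratase hacd1 by 2.65 and 3.26, elovl5 by 2.12 and 1.78, the membrane-bending protein mtss1la by 2.09 and 2.16, and the mitochondrial elongation factor gfm1 by 2.25 and 1.08, without and with Oligo-Fucoidan in that order. Of the lower genes, LOC100216314 had 4.58, 3.56 and 3.64 on the HBx,src,p53 DIO arrays, against 8.33 and 10.28 on the WT arrays, and differed by -5.38 and -6.87. The transporter-like mfsd4aa differed by -2.16 and -3.22, the MAX partner mxd3 by -2.25 and -1.53, the PI3-kinase subunit gene pik3r3b by -1.75 and -1.33, and the growth factor hbegfa by -1.83 and -2.07. Calls with 10 Gy alone were lost for raly without either WT array (0.095 and 0.064), for hacd1 (0.083) and mtss1la (0.17) without WT replicate 1, for elovl5 without WT replicate 2 (0.053), and for hbegfa without WT replicate 1 (0.24) or HBx,src,p53 DIO replicates 1 and 3 (0.058 and 0.096).

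**Figure D4:**
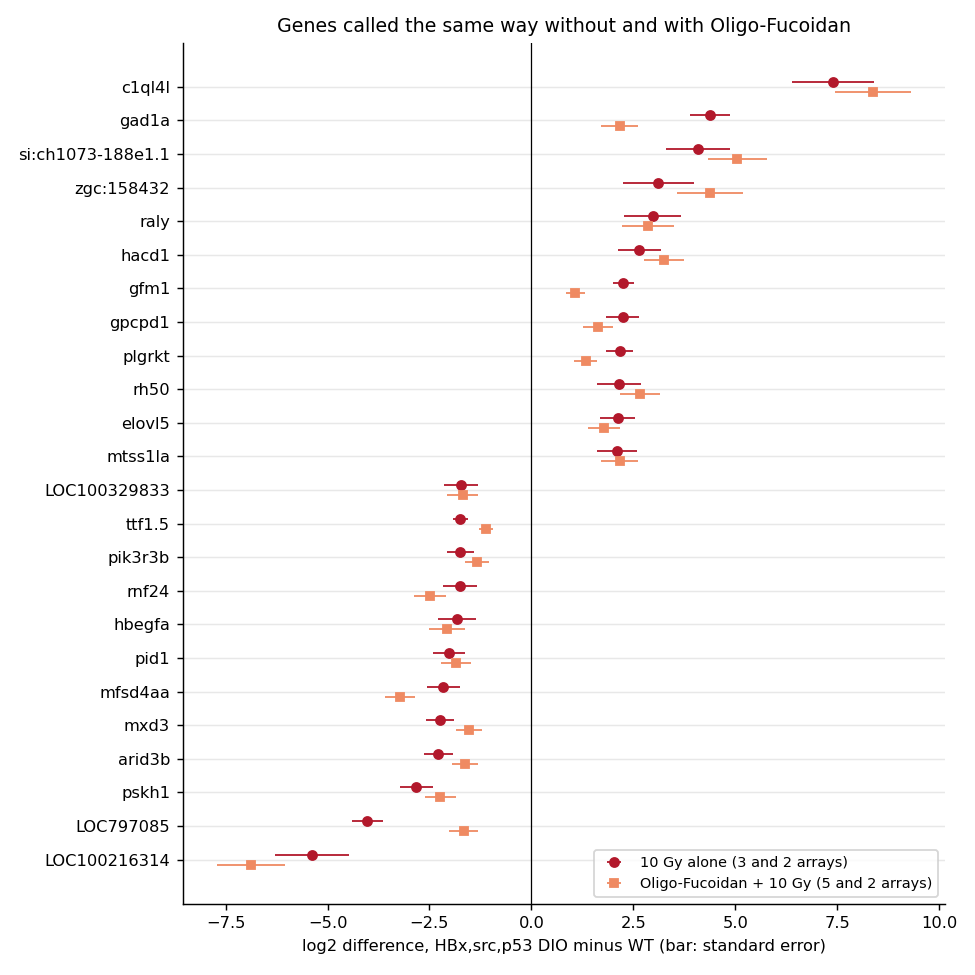
Log2 differences between HBx,src,p53 DIO and WT arrays for 12 higher and 12 lower genes, those farthest apart at 10 Gy alone among the 30 and 23 called the same way in both contrasts, with circles for 10 Gy alone, squares for Oligo-Fucoidan + 10 Gy and bars for the standard error. All pairs of symbols lie on the same side of 0, by the choice of the genes.

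The contrast with 40 Gy alone lies in the first batch, where dose, batch and the p53 allele differ too. Its groups also differed in the oestrogen response. That list averaged 7.6 to 7.83 on the HBx,src DIO 40 Gy arrays and 4.4 to 4.57 on the WT 40 Gy arrays. The part of this in the counts was not tested. HBx,src DIO livers had 269 genes higher (1.29%) and 292 lower (1.4%) than WT livers. Of the 1118 genes higher at 10 Gy alone, 41 were also higher and 23 lower, and of the 1765 lower genes 28 were also lower and 10 higher. A positive difference was found for 54.4% of the higher genes and 52.6% of all genes, and a negative one for 40.7% of the lower genes and 47.4% of all genes. The medians there were 0.53 for sterol synthesis, -0.05 for the ER and 0.25 for the ovary list, whose mean was 2.07 to 2.09 on the WT 40 Gy arrays. The 3 genes called higher in all 3 contrasts were raly, mtss1la and, chosen after its values were seen, srprb, a subunit of the receptor that brings ribosomes to the ER. At 10 Gy srprb averaged 10.91 on the HBx,src,p53 DIO arrays, the lowest of which was at 10.80, and 9.62 on the WT arrays, at 9.79 and 9.45. Its difference was 1.29 at 10 Gy, 1.3 with Oligo-Fucoidan and 1.75 at 40 Gy, and its call at 10 Gy alone was lost without WT replicate 2 (0.15) or HBx,src,p53 DIO replicate 1 (0.055). No gene was lower in all 3.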

How the data were processed

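Liver RNA was hybridised to ZebGene 1.1 ST arrays, and the values, on the log2 scale, are as the authors deposited them from the Transcriptome Analysis Console, whose version and algorithm were not given in the sources used here. Nothing was normalized again. Of the 75212 probe sets, 30358 had 1 gene symbol in the platform annotation, 1015 several and 43839 none. The brightest probe set was kept for each of 20908 genes, 6449 of which had several.

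Groups came from the labels. The means of 8 groups were fitted to all 23 arrays in limma 3.58.1 (R 4.3.3, with data.table in version 1.17.8) with 15 residual degrees of freedom, and Benjamini-Hochberg adjustment covered every probe set of the array. Tables and figures were made in Python 3.11.15 with matplotlib 3.10.9, numpy 2.4.6 and pandas 2.3.3. The fit was tried on simulated arrays with known differences and independent noise, which checks the computation and not the spread of the real arrays. The small number of arrays limits the precision, detection calls were not used, and where a group lay below its array medians the difference was also taken with those medians as a floor, an alternative chosen after seeing the data. No pair of arrays was identical.

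Lists were 41, with 2145 entries, of which 1932 matched a gene. The comparison and lists were chosen with earlier results of these data known. Named genes were the 12 higher and 12 lower called genes without overlap and with the largest differences, the same for genes called in both 10 Gy contrasts, up to 4 called members per list with the smallest p, vitellogenins and genes of the model, and members that a sentence turns on. Not all genes that met the rule are printed. Alternatives were each array left out, only the 5 arrays or batch 2, a replicate block, centring, quantile normalization, array weights, a trended prior, dim probe sets removed, mean over probe sets, a stricter threshold, and WT OF + 10 Gy in place of WT.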

Additional observations from a re-analysis of the deposited data

Results flagged for a closer look

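For 63 of the genes named, the contrast of HBx,src,p53 DIO with WT livers differed between fish with 10 Gy alone and fish with Oligo-Fucoidan + 10 Gy, by limma's test of the difference of both contrasts (adjusted p = 2.6e-09 to 0.048). The values are log2 differences, 10 Gy alone minus Oligo-Fucoidan + 10 Gy, and no array is shared by both contrasts. Many of the genes were named for their contrast with 10 Gy alone, which is part of the difference tested. The choice thus favours a difference in that direction, and the p-values do not allow for it. Of the ovary and steroid genes, the difference was -3.04 for wee2, -4.29 for zpd, -5.06 for fbxo5, -4.22 for pabpc1l, -5.81 for dazl, -2.79 for ddx4, -4.28 for bmp15, -7.05 for zpax1, -4.3 for cyp11a1.1, -2.77 for cyp17a1 and -2.32 for hsd3b2. Of the cell cycle and repair genes, it was -4.34 for ccnb2, -4.97 for nusap1, -3.47 for prc1a, -3.84 for aurkb, -4.86 for cdk1, -2.93 for cdk2, -5.17 for ccne1, -3.87 for blm, -2.6 for eme1, -1.77 for rad54b, -2.9 for dna2, -2.32 for rbbp8 and -2.41 for chek1. Other genes were lower in HBx,src,p53 DIO than in WT livers, both with 10 Gy alone. For these it was -8.04 for wu:fi09b08, -7.71 for gtf3ab, -7.93 for dop1b, -6.37 for thy1, -3.59 for tpi1a, -4.36 for epcam and -4.33 for cldn7b. It was -4.78 for ctss2.1, -4.82 for igf2bp3, -1.71 for fyna, -2.54 for fn1a, -4.11 for plk3, -3.89 for pmaip1, -3.05 for scarb1 and -1.25 for itih3a.1. Among sterol, lipid carrier and amino acid genes the contrast was larger with 10 Gy alone, by 3.29 for mvk, 4.03 for idi1, 1.82 for mttp, 3.29 for apoa1a, 1.63 for asns, 3.2 for psat1, 3.52 for oat and 2.54 for gcdha. Among ER, proteasome, heat shock and respiratory chain genes it was larger by 2.42 for edem3, 2.03 for edem2, 1.98 for sec63, 1.95 for sdf2, 1.39 for psmd3, 1.5 for psmd2, 1.37 for psma8, 1.93 for hspe1, 2.41 for hspa13, 1.21 for ndufs1, 1.01 for ndufa6 and 1.66 for cox6b1. For genes outside these lists it was larger by 5.24 for fabp7a, 5.45 for cyb5b, 3.96 for si:ch1073-13h15.3 and 2.11 for urod. Ovary genes and vitellogenin were bright on the WT arrays with 10 Gy alone and not on those with Oligo-Fucoidan, and the part of this in the differences was not tested.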

How the results depend on the processing

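Counts are of adjusted p under 0.05 in limma unless another threshold is given. For HBx,src,p53 DIO against WT with 10 Gy alone, 5470 probe sets were called, 3563 where the 5 arrays were fitted alone and 3355 at an adjusted p under 0.01, and 3657 to 4967 with 1 array left out. Of genes, 2883 were called, 1917 with the 5 arrays alone, 1866 at the stricter threshold, 1872 against WT OF + 10 Gy and 1852 to 2591 with 1 array left out. With Oligo-Fucoidan, 573 probe sets were called and 289 after quantile normalization over all arrays (383 to 757 with 1 array left out). With 40 Gy, 1448 were called, 3150 after that normalization and 710 to 2357 with 1 array left out, and centring gave 763 higher and 585 lower in place of 630 and 818. The difference of both 10 Gy contrasts called 2683, and 1772 without the dimmest probe sets. The cause was not tested.

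Replicate numbers are shared by the labels but name no common fish, and deviations of arrays of 1 number did not correlate (0.000621 and -0.0164). With the replicate block 4255 probe sets were called with 10 Gy alone, 156 with Oligo-Fucoidan and 956 with 40 Gy, and the oestrogen list median was -0.19.

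With WT OF + 10 Gy in place of WT, the HBx,src,p53 DIO arrays being the same, 523 of the 1118 higher and 197 of the 1765 lower genes remained called, and 18 were called the opposite way. Of the 148 genes named, 30 had a difference of the opposite sign, which was small for some, such as 0.02 for aurkb and 0.08 for blm. List medians were -0.01 for lipogenesis, -0.26 for amino acids, 0.22 for the ovary, 0.26 for the cell cycle and 0.06 for repair. Gene differences were -0.43 for apoa1a, 0.02 for aurkb, 0.08 for blm, 0.39 for bmp15, ctss2.1 and wee2, 0.43 for ccnb2, 1.04 for ccne1 and phgdh, 0.26 for cdk1 and cyp17a1, 1.21 for cdk2, 0.13 for chek1, 0.77 for dazl, 0.34 for ddx4, 0.94 for dna2, 1.69 for dop1b, 0.25 for eme1, 0.78 for fkbp14, 0.2 for foxl2l, -0.54 for gcdha, 0.95 for gtf3ab, 0.5 for nusap1, 0.58 for pabpc1l, 0.1 for scarb1, 0.14 for thy1, 0.35 for tpi1a, 1.4 for wu:fi09b08, 0.37 for zpax1 and 0.57 for zpd. A further 34 lost their call and 7 gained one. Of the 148, 34 lost the call without WT replicate 1, 28 without WT replicate 2, 8 to 11 without an HBx,src,p53 DIO array, 23 with the 5 arrays alone, 19 with the block and 12 with batch 2 alone. Under centring, array weights, the trended prior and the floor, 1 or 2 lost it.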
